A study of Mus musculus with 12 samples.

Results

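The mitochondrial ribosomal proteins are the nuclear-encoded proteins of the ribosome that works inside mitochondria. Members were taken by name, as every protein-coding row whose symbol begins with Mrpl or Mrps and a digit and that is listed in all 3 of the authors' deposited tables. This gave 77 of the 20884 genes shared by the tables, 48 named Mrpl and 29 named Mrps, and left out 4 processed pseudogenes of the same symbols. All 77 had an adjusted p-value at each of the 3 times, so no member was lost to a filter on low values. The choice used names and not measured values, but it was made with earlier results of these data known.

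The cells were bone marrow-derived macrophages, grown from marrow of wild-type C57BL/6 male mice aged 8 to 16 weeks for 7 days in macrophage colony stimulating factor (M-CSF, 10 ng/mL), which stayed in the medium in every group. There were 12 polyadenylated-RNA libraries, 3 in each of 4 groups: control cells never given monophosphoryl lipid A (MPLA), cells exposed to it for 4 h or for 24 h, and cells taken 3 d after MPLA priming had ended. MPLA is a derivative of bacterial lipopolysaccharide that acts through Toll-like receptor 4. The priming time of the 3 d group and the harvest time of the controls are not in the labels. Nor do these say that replicate libraries are from separate mice or cultures, so the p-values measure only the spread between libraries, and that spread may be technical. The design addresses how expression changes early and late during MPLA exposure and what is left of the change days afterwards.

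The mitochondrial ribosome translates the few proteins encoded by mitochondrial DNA, all of them subunits of the respiratory chain and of ATP synthase. Its RNAs come from mitochondrial DNA, whereas its proteins are made in the cytosol and imported. Some are homologues of bacterial ribosomal proteins, and others are found only in mitochondrial ribosomes. The transcription factors NRF1 and GABPA, an ETS-family factor, are classical regulators of nuclear genes for mitochondrial proteins, and macrophages given Toll-like receptor ligands are known for moving away from respiration and toward glycolysis.

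The promoters of these genes often hold the letters bound by those factors. The stretches below are examples, chosen after their values were seen, of members with different responses that hold the same letters. Each is the 130 bases before the RefSeq transcription start (GRCm38.p6), 5′ to 3′ on the gene's strand. In the first 4 the capitals mark CCGGAAG or its reverse complement, the core of an ETS/GABPA motif. They are Mrpl52 at chr14:54426779-54426908 (plus strand), Mrps22 at chr9:98601680-98601809 (minus strand), Mrpl34 at chr8:71464796-71464925 (plus strand) and Mrpl43 at chr19:45006443-45006572 (minus strand).
Mrpl52: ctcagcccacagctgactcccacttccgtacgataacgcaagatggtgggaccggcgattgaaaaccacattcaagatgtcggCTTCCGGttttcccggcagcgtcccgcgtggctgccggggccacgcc
Mrps22: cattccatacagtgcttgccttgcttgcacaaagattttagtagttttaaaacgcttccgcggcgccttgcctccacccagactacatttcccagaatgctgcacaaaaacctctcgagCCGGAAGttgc
Mrpl34: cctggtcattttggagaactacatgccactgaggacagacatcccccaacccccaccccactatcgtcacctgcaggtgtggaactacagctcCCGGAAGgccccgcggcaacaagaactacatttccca
Mrpl43: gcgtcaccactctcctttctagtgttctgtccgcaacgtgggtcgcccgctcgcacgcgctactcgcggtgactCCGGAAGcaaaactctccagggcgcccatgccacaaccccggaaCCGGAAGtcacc

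In the next 3 the capitals mark matches to the NRF1 motif on either strand. They are Mrpl45 at chr11:97315586-97315715, Mrpl12 at chr11:120484507-120484636 and Mrpl9 at chr3:94443206-94443335, all on the plus strand.
Mrpl45: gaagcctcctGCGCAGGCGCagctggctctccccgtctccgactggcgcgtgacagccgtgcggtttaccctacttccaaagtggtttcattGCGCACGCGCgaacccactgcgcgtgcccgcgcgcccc
Mrpl12: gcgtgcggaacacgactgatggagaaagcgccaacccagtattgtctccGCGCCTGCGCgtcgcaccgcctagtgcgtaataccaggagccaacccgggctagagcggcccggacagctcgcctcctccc
Mrpl9: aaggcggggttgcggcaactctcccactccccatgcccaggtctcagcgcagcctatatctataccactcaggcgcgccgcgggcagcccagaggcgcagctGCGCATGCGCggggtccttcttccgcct

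The files give 1 log2 fold change per gene and time, so values per library cannot be shown and depth is unknown. Every log2 fold change below is MPLA over control. It was taken from what the authors' deposited tables give for DESeq2 except where edgeR is named. A member was called at an adjusted p-value under 0.05 from DESeq2, and the standard error (SE) is the one implied by the deposited p-value. The same 3 control libraries serve all 3 comparisons. In the edgeR columns of the authors' deposited tables the members lie lower by a nearly constant amount at each time. The median of all tested genes moves by -0.93 at 4 h, -0.41 at 24 h and -0.13 at 3 d on the log2 scale when edgeR is read in place of DESeq2. Single genes outside the family can move by other amounts or upward, as Nos2 does at 3 d (5.72 with DESeq2, 6.22 with edgeR). A fold change of a member is therefore best read against the other genes of the same table, and the main counts of calls are given with both tools. The shares of genes given with edgeR are over all listed genes (21893, 21923 and 23248 at 4 h, 24 h and 3 d). These include genes that DESeq2 did not test, whereas every member was tested. All 8 macrophage markers were tested at each time, with 6 called higher and 1 lower at 4 h, 4 and 4 at 24 h, and 5 and 3 at 3 d. Markers of other cell types also differed, in the authors' deposited tables by 7.19 for Lck and 3.92 for Xcr1 at 4 h, by -4.29 for Kit and -3.97 for Cpa3 at 24 h, and by 3.65, 6.86 and 4.70 for Dcn at the 3 times. Other markers of the same cell types went the other way. The T cell marker Cd4 was called lower at 4 h (-0.91). Of 5 dendritic cell markers 3 were called higher and 0 lower at 4 h, but at 24 h Zbtb46 was lower (-1.50) and Xcr1 higher (3.08). Dcn was listed at 0 in controls and Cpa3 after 24 h of MPLA. Of the 5 fibroblast markers 2, Dcn and Pdgfra, were called higher at 4 h with either tool, and the highest value among the 5 was then 4.34. The other fibroblast markers, Col1a1, Col1a2 and Col3a1, were called at no time by DESeq2. With edgeR Col1a2 was called lower at 4 h and 24 h, Col1a1 lower at 24 h and Col3a1 higher at 3 d. The part of other cell types in the results was not tested. In whole cultures, fewer cells of a type and less RNA per cell cannot be told apart.

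After 4 h of MPLA the members split in both directions. Of the 77, 31 were called higher against 31.8% of all tested genes, 18 were called lower against 31.0%, and 28 were not called. With edgeR 3 were called higher against 13.5% of genes and 65 lower against 50.1%, and 20 of the 31 members higher with DESeq2 were lower with edgeR, a reversal met by 11.1% of tested genes. The median log2 fold change of the members was 0.03 (-0.91 with edgeR), beside -0.04 for all tested genes (-0.97 with edgeR). The members thus sat at the middle of the transcriptome, at a median percentile of 52.0. Of the members 16 were called higher by at least 1.5-fold, against 24.1% of genes, and 7 lower, against 24.5% (1 and 49 with edgeR). For the edgeR counts at 1.5-fold the share of all genes was not taken at any time. The members were also less spread than all tested genes, with an interquartile range of 0.72 against 1.90 on the log2 scale. This was not particular to them. The range was narrower still for the cytosolic ribosomal proteins (0.28) and for the genes of respiratory complexes I, III, IV and V (0.47).

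After 24 h most members were on the higher side. In that comparison 50 of the 77 were called higher against 32.4% of all tested genes, and 8 were called lower against 32.2%. With edgeR 25 were called higher against 16.2% of genes and 34 lower against 41.8%, so a larger share of members than of genes was higher with either tool, although with edgeR more members were lower than higher. Called higher by both tools were 25, against 20.8% of tested genes, and 8 were higher with DESeq2 and lower with edgeR, against 4.87%. The median log2 fold change was 0.34 (-0.07 with edgeR), against -0.05 for all tested genes (-0.46 with edgeR), and the median percentile was 66.9. A change of at least 1.5-fold was reached by 25 members called higher, against 19.8% of genes, and by 2 called lower, against 22.8% (9 and 10 with edgeR).

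At 3 d after priming the changes were smaller. There 25 members were called higher against 29.5% of all tested genes, 12 were called lower against 25.8%, and 40 were not called. With edgeR 18 were called higher and 28 lower, against 15.5% and 27.7% of all listed genes. As DESeq2 did not test all of those genes, these shares are not like for like. Called higher by both tools were 18 members, against 22.5% of tested genes, and lower by both 12, against 25.8%. With DESeq2 the share of members was near that of all genes on the higher side and smaller on the lower side. The median log2 fold change was 0.05 (-0.08 with edgeR) beside -0.02 for all tested genes (-0.15 with edgeR). No member was called lower by 1.5-fold or more with DESeq2, against 10.6% of genes, and 6 were called higher by that much, against 11.2% (with edgeR 5 higher and 2 lower).

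**Figure D1:**
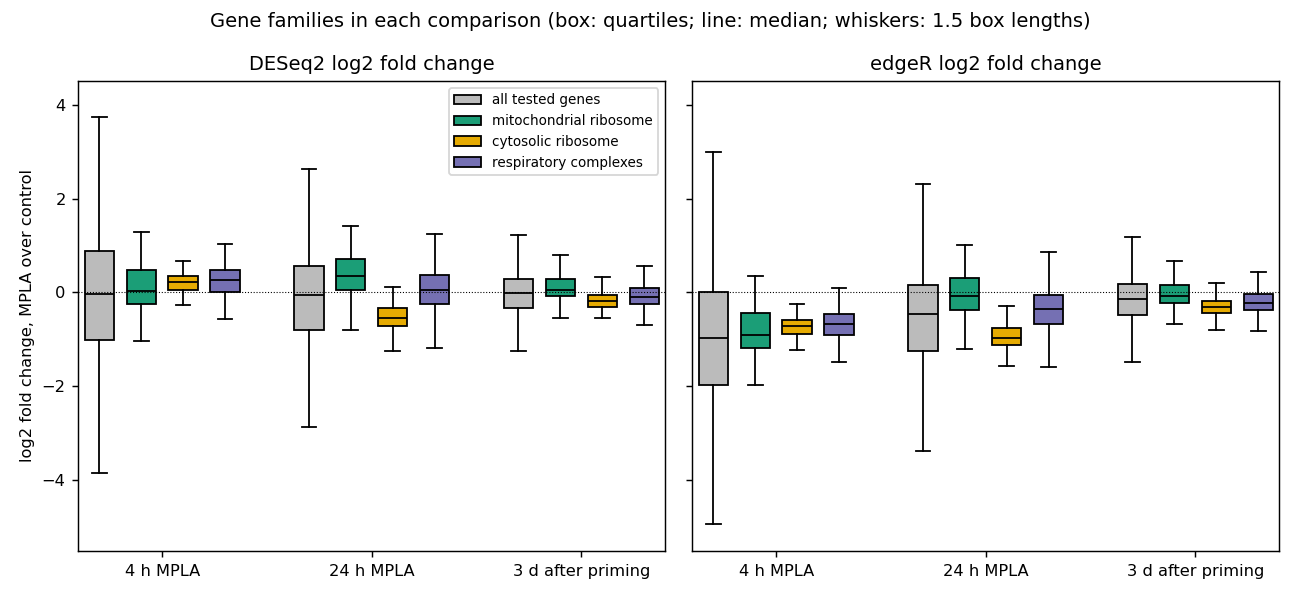
Log2 fold change of MPLA over control for the mitochondrial ribosomal proteins, the cytosolic ribosomal proteins, the nuclear genes of respiratory complexes I, III, IV and V, and all tested genes at the 3 times, with DESeq2 values in the left panel and edgeR values in the right. The families were taken by symbol, and the respiratory one holds assembly factors named Ndufaf too. Boxes span the quartiles, the line is the median, and whiskers reach to the last value within 1.5 box lengths. At 24 h the mitochondrial ribosomal proteins have a median of 0.34 and the cytosolic ribosomal proteins one of -0.55 with DESeq2, and both are lower with edgeR, where the former turns negative (-0.07).

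The cytosolic ribosomal proteins were mostly lower at 24 h, when most of the mitochondrial ones were higher with DESeq2 (but not with edgeR). The cytosolic ribosome translates all nuclear-encoded messages, and its family was taken by symbol, so paralogues can count with it. Of 100 such genes 94 were tested at 24 h, and 6 were called higher and 76 lower (5 and 81 of all 100 with edgeR). Their median log2 fold change was -0.55. The medians of the mitochondrial and cytosolic families lay 0.89 apart on the log2 scale with either tool, a gap that a constant scaling cannot alter. The order was the other way round at 4 h, when the cytosolic family had 62 of 97 tested members called higher with DESeq2 (1 with edgeR, 88 lower) and a median 0.19 above that of the mitochondrial family. At 3 d, 10 of 91 tested cytosolic ribosomal proteins were called higher and 57 lower (4 and 72 with edgeR), and the mitochondrial median lay 0.23 above theirs. The difference between families was not tested.

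Genes for the respiratory chain and ATP synthase, into which the products of mitochondrial translation are built, lay between the ribosome families at 24 h. They were taken by symbol, so assembly factors named Ndufaf count with them. Of 84 such genes 38 were called higher and 23 lower (12 and 57 with edgeR), and their median log2 fold change of 0.06 was 0.28 below that of the members. At 4 h they had 48 called higher and 12 lower with DESeq2, where edgeR had 1 higher and 77 lower, and a median 0.24 above the members. At 3 d 15 were called higher and 37 lower (6 and 54 with edgeR), with a median of -0.10.

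At 24 h members of the large subunit were called higher in a larger share than members of the small subunit. Of all tested genes 32.4% were then called higher and 32.2% lower (16.2% and 41.8% of all listed genes with edgeR). Of the 30 large-subunit homologues of bacterial proteins, 22 were called higher and 5 lower (12 and 13 with edgeR), with a median log2 fold change of 0.35. Of the 20 large-subunit proteins found only in mitochondria, 17 were called higher and 1 lower (8 and 4 with edgeR), with a median of 0.52. The 16 small-subunit homologues of bacterial proteins had 8 higher and 0 lower (3 and 9 with edgeR, where the direction of most calls is the opposite), with a median of 0.21. The 11 members assigned as small-subunit proteins found only in mitochondria had 3 higher and 2 lower (2 and 8 with edgeR), with a median of 0.01. Their share called higher with DESeq2, 27.3%, was near that of all tested genes. These groups go by assigned place in the ribosome, so Mrps18a and Mrps30, which sit in the large subunit in spite of their names, count with it. Mrps36, a member by its symbol, was kept, but whether it is part of the ribosome was not checked.

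The same order of groups held at neither of the other times in full. At 4 h 31.8% of all tested genes were called higher and 31.0% lower (13.5% and 50.1% of all listed genes with edgeR). At 4 h the medians were 0.19 for the large-subunit homologues (14 higher and 6 lower, 2 and 26 with edgeR) and 0.11 for the small-subunit homologues (7 and 2, 0 and 13 with edgeR). Of the proteins found only in mitochondria, those of the large subunit had a median of 0.03 (8 higher and 6 lower, 1 and 16 with edgeR) and those of the small subunit -0.29 (2 and 4, 0 and 10 with edgeR). At 3 d the 4 medians, in the order large-subunit homologues, large-subunit specific, small-subunit homologues and small-subunit specific, were 0.04, 0.13, 0.05 and -0.03. The small-subunit proteins found only in mitochondria had the lowest median at each time with DESeq2, but no test of the difference between groups was made.

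**Figure D2:**
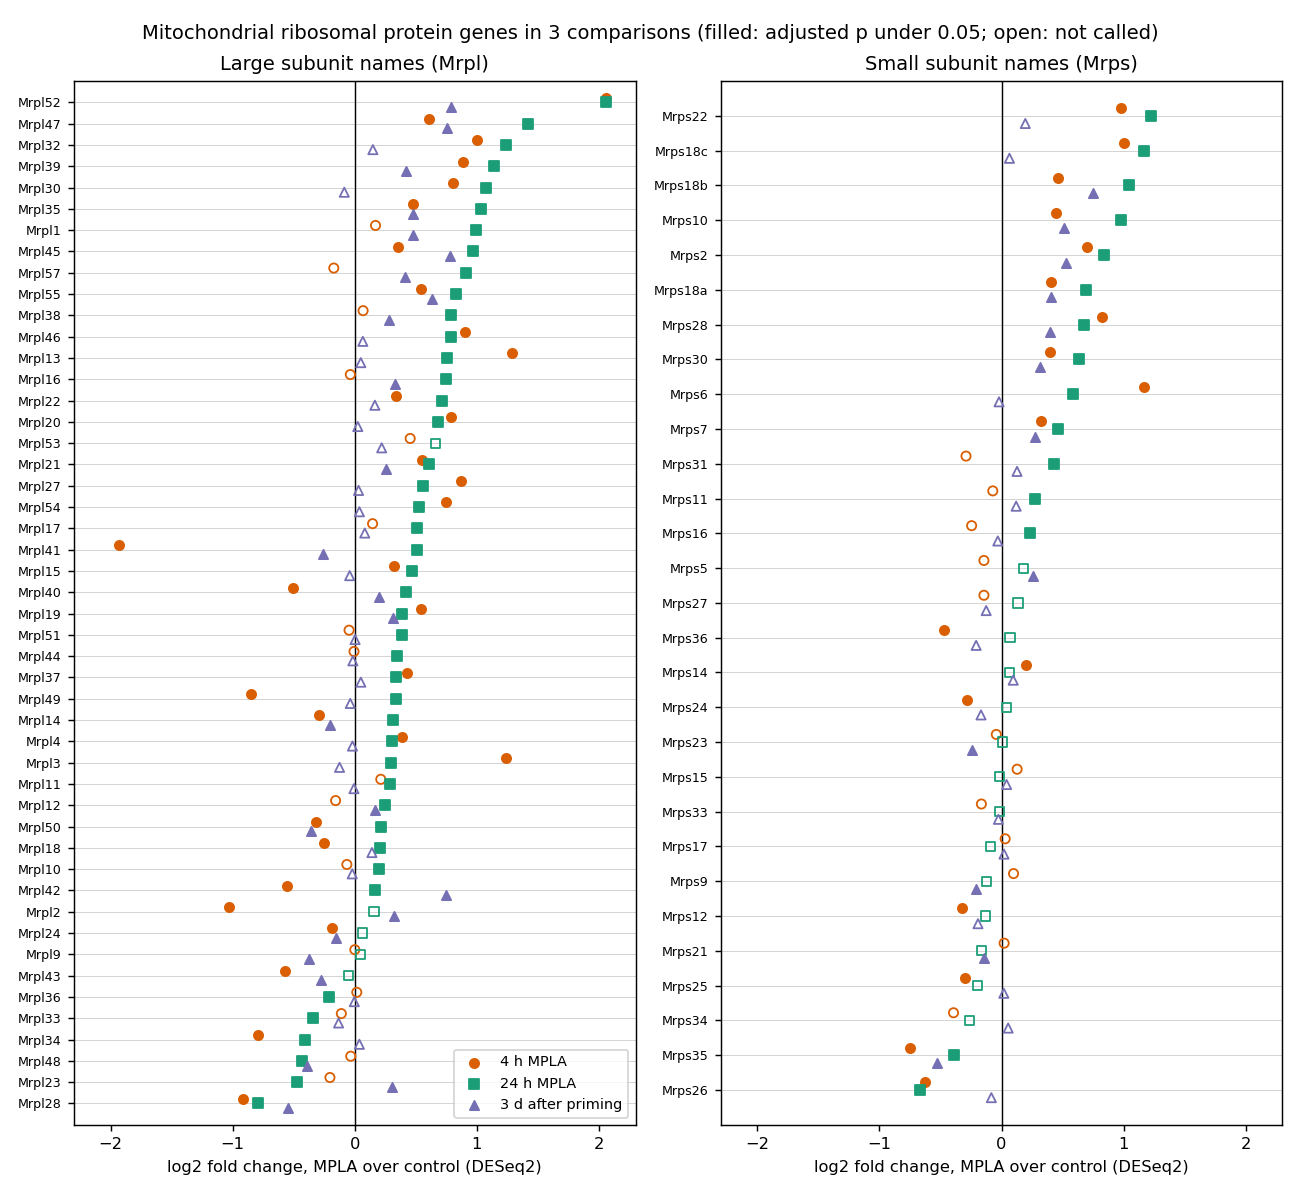
Log2 fold change (DESeq2, MPLA over control, horizontal axis) of each of the 77 members, 1 row per member, at 4 h, 24 h and 3 d after priming, shifted slightly within a row so that each can be seen, filled where called and open where not, with rows in the order of the 24 h value. Mrpl52 is at 2.05, 2.06 and 0.79, Mrpl41 goes from -1.93 at 4 h to 0.51 at 24 h, and the 3 d points lie between -0.55 and 0.79. With edgeR all points lie lower, by about 0.94, 0.41 and 0.13 at the 3 times.

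Mrpl52, a large-subunit protein found only in mitochondria, had the highest log2 fold change of the members at every time. In the authors' deposited tables it was 2.05 (SE 0.0745, adjusted p = 3.42e-166) at 4 h, 2.06 (SE 0.0669, adjusted p = 6.54e-207) at 24 h and 0.79 (SE 0.0660, adjusted p = 6.98e-32) at 3 d, which is 4.15-fold, 4.17-fold and 1.73-fold. It was called higher by edgeR at each time too, at 1.12, 1.65 and 0.66. It lay at percentiles 88.2, 93.5 and 91.1 of all tested genes. The gene (ENSMUSG00000010406, chr14:54426909-54429756, plus strand) overlaps no other annotated exon and shares no 50-base stretch with another gene, and its promoter is the first shown above.

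Mrpl28, a homologue of bacterial L28, was the member with the lowest value at 24 h and at 3 d. In the authors' deposited tables its log2 fold change was -0.92 (SE 0.0847, adjusted p = 7.97e-27) at 4 h, -0.79 (SE 0.0754, adjusted p = 3.65e-25) at 24 h and -0.55 (SE 0.0551, adjusted p = 1.83e-22) at 3 d. Mrps35, a small-subunit protein found only in mitochondria, was at -0.75, -0.39 and -0.53. These 2 members were called lower at all 3 times, with edgeR as well as with DESeq2, where 14.3% of the genes tested at each time were lower throughout with DESeq2. Neither shares over 10% of its exonic bases or 50-base stretches with another gene, and Mrpl28 lies at chr17:26123500-26126613 on the plus strand.

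Mrpl41 had its low value at 4 h. This large-subunit protein found only in mitochondria had a log2 fold change of -1.93 (SE 0.183, adjusted p = 3.29e-25) at 4 h in the authors' deposited table, 3.80-fold lower and the lowest of all members. At 24 h it was called higher, at 0.51 (adjusted p = 9.71e-07, 0.10 and not called with edgeR), and at 3 d lower, at -0.26 (adjusted p = 0.0095). Mrpl41 is a short gene of 982 bases, and 11.3% of its 50-base stretches also occur in the annotated gene Gm6434, so some of its reads could have been placed there.

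**Figure D3:**
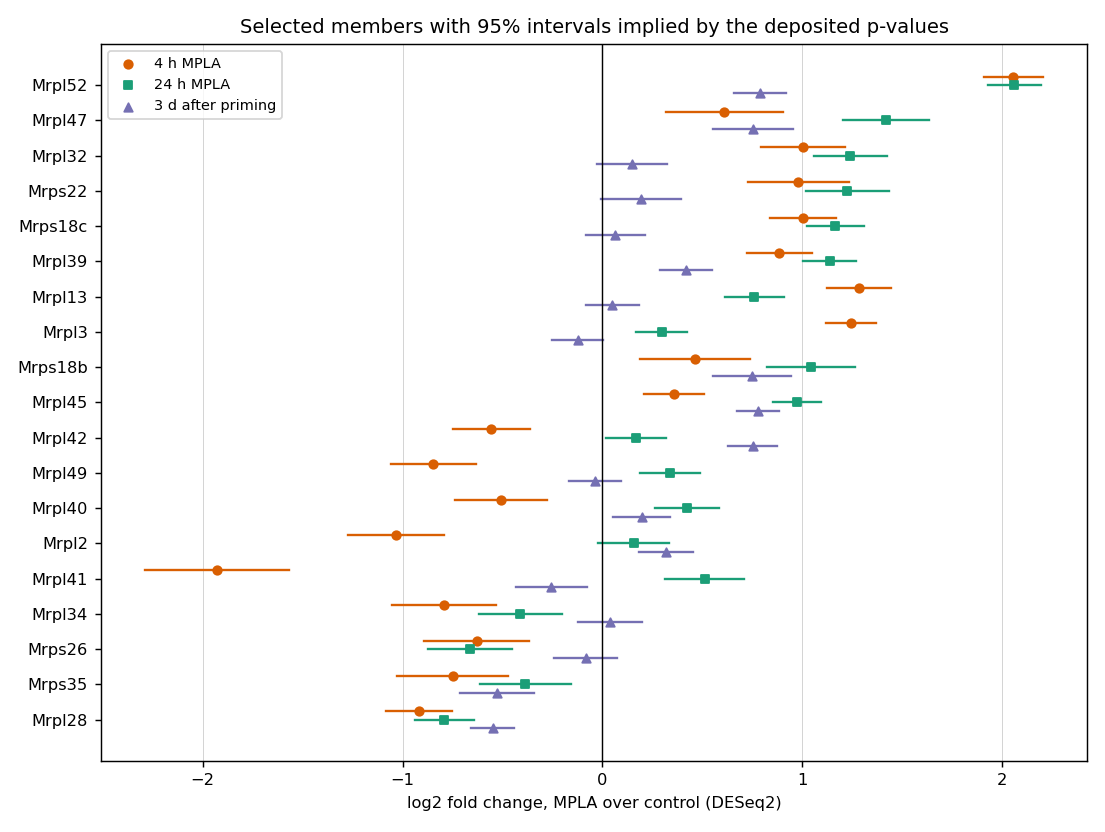
Log2 fold change (DESeq2, MPLA over control, horizontal axis) at 4 h, 24 h and 3 d of selected members that had a high, low or changing value, with the 95% interval implied by the deposited p-value as a bar. At 4 h the intervals of Mrpl52 (1.91 to 2.20) and of Mrpl41 lie apart from all others drawn for that time. With edgeR all points lie lower, and Mrpl32 and Mrps18c at 4 h are then at 0.07.

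The next 5 members at 4 h by DESeq2 value were homologues of bacterial ribosomal proteins, and Mrps22, found only in mitochondria, followed at 0.98. Mrpl13 was at 1.28 (SE 0.0820, adjusted p = 1.45e-54) in the authors' deposited table, and Mrpl3, which lies close to the peptidyl transferase centre, at 1.24 (SE 0.0645, adjusted p = 7.82e-82). With Mrpl52 they were the 3 members called higher by both tools at 4 h, at 0.35 and 0.31 with edgeR, where 16.6% of tested genes were. Mrps6 was at 1.16, Mrps18c, a homologue of bacterial S18, at 1.00, and Mrpl32, whose import sequence is cut off by the m-AAA protease before it joins the ribosome, also at 1.00. None of these last 3 was called by edgeR, at 0.24, 0.07 and 0.07. In the annotation, 19.9% of the exonic bases of Mrps6 lie in other genes of the same strand, among them Slc5a3, and 23.2% of those of Mrps18c lie in Gm43511, so their counts are uncertain.

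The value of Mrpl3 was highest at 4 h with either tool, while that of Mrpl13 was lower at 24 h than at 4 h with DESeq2 and 0.35 at both with edgeR. At 24 h Mrpl13 was at 0.76 and Mrpl3 at 0.30 (0.35 and -0.12 with edgeR, the latter called lower) in the authors' deposited tables, and at 3 d they were at 0.05 and -0.12, neither called. Mrpl32 by contrast was at 1.24 (SE 0.0930) at 24 h, and Mrps18c at 1.17, and both were then called higher with edgeR too, at 0.83 and 0.75. By 3 d these were at 0.15 and 0.06 and not called. The differences between times were not tested.

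The 18 members called lower at 4 h by DESeq2 were also lower with edgeR, as were all genes called lower by DESeq2 at that time. After Mrpl41 came Mrpl2 at -1.03 (SE 0.123, adjusted p = 1.51e-16), Mrpl28 at -0.92, Mrpl49 at -0.85, Mrpl34 at -0.79 and Mrps35 at -0.75 in the authors' deposited table. Mrpl2 is the homologue of bacterial L2, a protein of the peptidyl transferase region, and Mrpl34 that of L34. The other 12 were Mrpl14, Mrpl18, Mrpl24, Mrpl40, Mrpl42, Mrpl43, Mrpl50, Mrps12, Mrps24, Mrps25, Mrps26 and Mrps36. Mrps12 belongs to the decoding centre and was at -0.33, and Mrps26 was at -0.63. Mrps25 was at -0.30, and 69.8% of its exonic bases lie opposite Nr2c2, itself at -2.70, so its count is uncertain, as is that of Mrps36 (17.3% of its 50-base stretches shared). The same holds for Mrpl43 (33.4% of exonic bases opposite another gene), Mrpl24 (26.3%), Mrpl14 (11.2%) and Mrpl18 (10.1%). It also holds for Mrps24, with 15.4% in Urgcp on the same strand.

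Several of the members that were lower at 4 h were higher later. By DESeq2, 9 members were called higher at some time and lower at another, namely Mrpl2, Mrpl14, Mrpl18, Mrpl23, Mrpl40, Mrpl41, Mrpl42, Mrpl49 and Mrpl50. Among all genes tested at each time 16.1% had such calls, a larger share than among the members. Of these, 2 kept opposite calls with edgeR, Mrpl2 and Mrpl42. Mrpl2 went from -1.03 at 4 h to 0.16 at 24 h, not called, and 0.32 (adjusted p = 1.24e-05) at 3 d in the authors' deposited tables. Mrpl42 went from -0.56 (adjusted p = 3.26e-08) to 0.17 and 0.75 (SE 0.0635, adjusted p = 2.97e-31), with edgeR values of -1.50, -0.25 and 0.62. Mrpl49 was at -0.85, 0.34 and -0.04, and Mrpl40 at -0.51, 0.42 and 0.20. Mrpl14 and Mrpl50 followed the course of Mrpl41, at -0.29, 0.31 and -0.20 and at -0.32, 0.21 and -0.36. Mrpl18 was at -0.25, 0.21 and 0.14, and Mrpl23, a homologue of bacterial L23 at the exit of the peptide tunnel, was at -0.20, -0.48 and 0.31. Exons of Mrpl14 lie partly opposite Tmem63b and those of Mrpl18 opposite Tcp1, so both counts are uncertain unless strand was used.

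Another 15 members were called higher at all 3 times by DESeq2, where 16.6% of the 15038 genes tested at each time were, a share close to that of the members, and Mrpl52 was the only one of them called higher by edgeR each time. These were Mrpl19, Mrpl21, Mrpl35, Mrpl39, Mrpl45, Mrpl47, Mrpl52, Mrpl55, Mrps2, Mrps7, Mrps10, Mrps18a, Mrps18b, Mrps28 and Mrps30. At 4 h the edgeR values of the others were below 0. Mrpl45, which holds the ribosome at the inner membrane, was at 0.36, 0.97 and 0.78 in the authors' deposited tables (SE 0.0764, 0.0608 and 0.0542), and at 3 d it was beside Mrpl52 at the top of the family. Mrpl47, related to bacterial L29, was at 0.61, 1.42 and 0.75, and Mrps18b at 0.46, 1.04 and 0.75. Of the exonic bases of Mrpl47 24.2% lie opposite Actl6a and Ndufb5, and of those of Mrps18b 30.5% lie opposite Gm16279, so both counts are uncertain unless strand was used.

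The rest of that group overlapped these in value. Mrpl39, which has a domain like that of threonyl-tRNA synthetase, was at 0.88, 1.14 and 0.42 in the authors' deposited tables, and Mrpl55 at 0.54, 0.83 and 0.63. Mrpl35 was at 0.47, 1.03 and 0.48, Mrps10 at 0.45, 0.98 and 0.51, and Mrps2 at 0.70, 0.84 and 0.52. Mrps18a and Mrps30 were at 0.69 and 0.64 at 24 h, Mrpl21 at 0.61, Mrps28 at 0.68, Mrps7 at 0.46 and Mrpl19 at 0.39. The last 2 are uncertain too, since 36.0% of the exonic bases of Mrpl19 lie opposite Gcfc2 and 11.9% of those of Mrps7 opposite Gga3 and Mif4gd. With DESeq2 the 24 h value or the 4 h value of each of these 11 genes was above that of 3 d. With edgeR the 3 d value was the highest for Mrpl55 (0.52), Mrps28 (0.28), Mrpl19 (0.18) and Mrps7 (0.15). For Mrps18a the edgeR values at 24 h and 3 d were both 0.28.

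Among the highest at 24 h was also Mrps22, a small-subunit protein found only in mitochondria whose loss in humans causes a deficiency of oxidative phosphorylation. It was at 1.22 (SE 0.106, adjusted p = 3.77e-30, 0.81 with edgeR) in the authors' deposited table for 24 h, at 0.98 at 4 h (0.05 and not called with edgeR) and at 0.19 at 3 d, not called. The 6 lowest called members at 24 h were Mrpl28 at -0.79, Mrps26 at -0.66 (SE 0.107), Mrpl23 at -0.48, Mrpl48 at -0.44, Mrpl34 at -0.41 and Mrps35 at -0.39, all called lower by edgeR as well. Mrpl23 shares 11.8% of its 50-base stretches with other genes and Mrpl48 13.7%.

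At 3 d the extremes lay closer to 0 than at 4 h and 24 h. Those highest were Mrpl52 at 0.79, Mrpl45 at 0.78, Mrpl47, Mrpl42 and Mrps18b each at 0.75, and Mrpl55 at 0.63 (SE 0.0978) in the authors' deposited table, and all 6 were called higher by edgeR. Those lowest were Mrpl28 at -0.55, Mrps35 at -0.53, Mrpl48 at -0.39, Mrpl9 at -0.38 (SE 0.0562), Mrpl50 at -0.36 and Mrpl43 at -0.28, all called lower by edgeR. Mrpl9 had been at 0.00 at 4 h and 0.04 at 24 h, neither called. Of the exonic bases of Mrpl43 33.4% lie opposite Twnk, the gene of the mitochondrial helicase, so its count is uncertain.

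The proteins of the stalk, where translation factors bind, had values near 0 with DESeq2 but not with edgeR at 4 h. Mrpl12, the stalk protein itself, was at -0.16, 0.24 and 0.16 in the authors' deposited tables at the 3 times, the last 2 called higher. Mrpl10, its anchor, was at -0.07, 0.19 and -0.02, and Mrpl11, at the stalk base, at 0.21, 0.28 and -0.01, with only the 24 h values called. With edgeR all 3 had values below 0 at 4 h and 24 h. The median difference of edgeR minus DESeq2 over the members was -0.94 at 4 h and -0.41 at 24 h. Exons of Mrpl10 and Mrpl12 also lie opposite other annotated genes by over 10%.

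**Figure D4:**
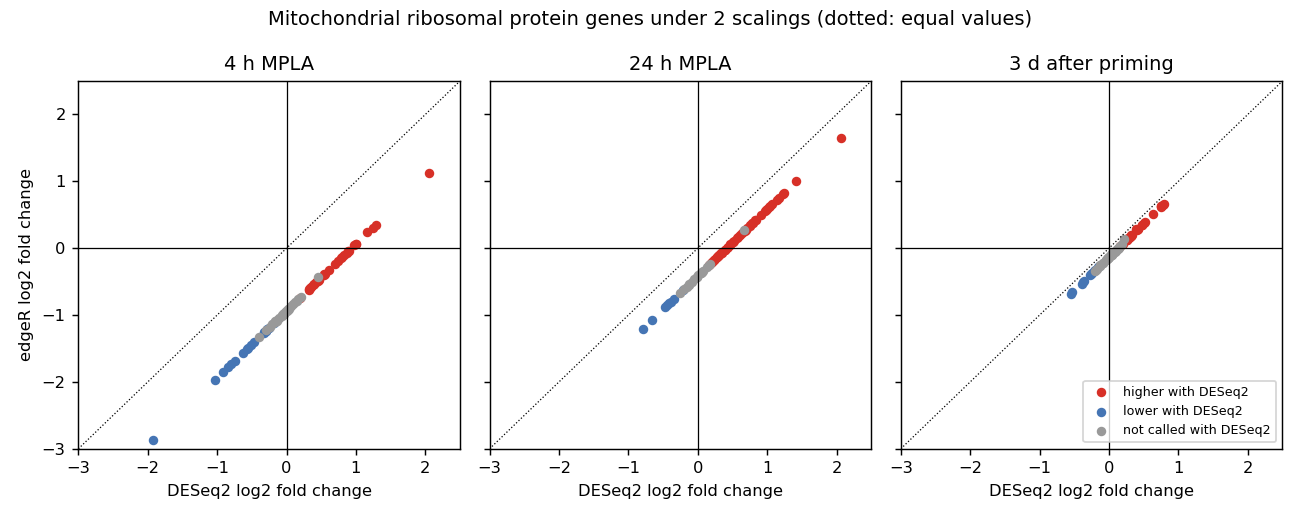
The DESeq2 log2 fold change of each member (horizontal axis) against its edgeR log2 fold change (vertical axis) at each time, MPLA over control. The points lie along a line shifted below equality by a median of 0.94 at 4 h, 0.41 at 24 h and 0.13 at 3 d, so that a member between 0 and that shift has a value above 0 with DESeq2 and below 0 with edgeR. Colours give the DESeq2 call.

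Within the DESeq2 scaling the data bound the change of members that were not called. The implied SE had a median of 0.105 at 4 h, 0.0871 at 24 h and 0.0740 at 3 d on the log2 scale. Of the uncalled members, 26 of 28 at 4 h, 17 of 19 at 24 h and 39 of 40 at 3 d had a 95% interval inside 1.5-fold in both directions. These bounds hold for that scaling only, since 27, 18 and 16 of the same members were called lower by edgeR, with median edgeR values of -0.98, -0.40 and -0.11. Called at no time by DESeq2 were Mrpl53, Mrps15, Mrps17, Mrps27, Mrps33 and Mrps34, and Mrpl53 alone among them was called at no time by edgeR either. The share of all genes called at no time was not taken, so this count has no background. Mrpl53 had the highest SE at each time (0.630 at 4 h), and 88.0% of its exonic bases lie in Gm42688 on the same strand. Mrps15 (SE 0.0592 to 0.0802) and Mrps17 (SE 0.0642 to 0.0822) had far smaller errors and DESeq2 values between -0.09 and 0.13 in the authors' deposited tables, whereas edgeR called both lower at 4 h (-0.81 and -0.91) and at 24 h (-0.43 and -0.50).

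The members lie on 17 chromosomes, yet many share a start region with another gene. A protein-coding gene on the other strand began within 1000 bases of the start of 33 of the 77 members (42.9%), against 2386 of 22028 protein-coding genes in the annotation (10.8%). Some of these partners begin inside the member, as Rab6a does in Mrpl48 and Twnk in Mrpl43. The genes of such pairs overlap on opposite strands, so their counts are less certain. Of these partners 10 were called higher and 13 lower at 4 h, 14 and 12 at 24 h, and 12 and 9 of 32 tested at 3 d (3 and 26, 10 and 19, and 5 and 13 with edgeR). The pair of Mrpl46 and Mrps11 counts under both names there, and once in the counts of pairs. In 7 of 32 tested pairs at 4 h (21.9%), 11 of 32 at 24 h (34.4%) and 6 of 31 at 3 d (19.4%), 1 gene was called higher and the other lower, against 19.6%, 18.8% and 11.3% of the other divergent pairs of protein-coding genes. With edgeR these were 2, 9 and 6 pairs, against 11.0%, 19.2% and 12.8% of the other pairs. The difference from other pairs was not tested.

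**Figure D5:**
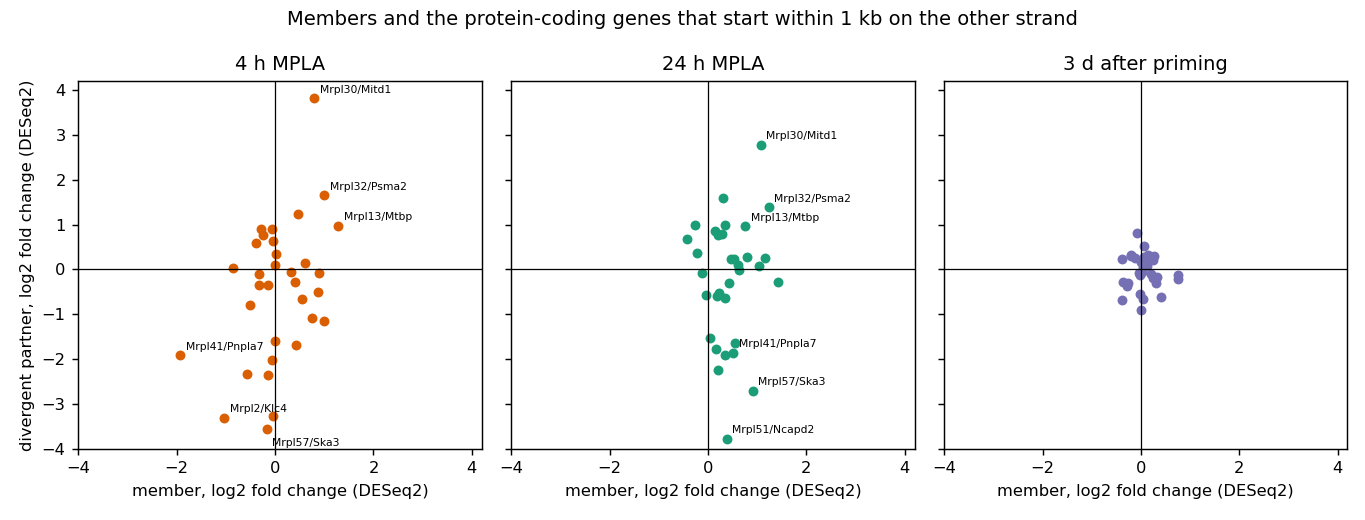
Log2 fold change (DESeq2, MPLA over control) of each member with a divergent protein-coding partner (horizontal axis) against that of the partner (vertical axis) at each time. The partners spread further than the members, from Ncapd2 at -3.78 at 24 h to Mitd1 at 3.82 at 4 h, and with edgeR every point moves down and to the left.

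The pairs ranged from shared to opposite responses. Mrpl32 and the proteasome gene Psma2 begin 75 bases apart and were at 1.00 and 1.65 at 4 h and at 1.24 and 1.38 at 24 h in the authors' deposited tables. Mrpl30 and Mitd1 begin 66 bases apart and were at 0.80 and 3.82 at 4 h and at 1.08 and 2.78 at 24 h. For both pairs both genes were called higher with DESeq2 at 4 h and 24 h, but with edgeR Mrpl30 was lower at 4 h (-0.13) and Mrpl32 was not called (0.07).

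Other pairs parted. Mrpl57 and Ska3, a gene of chromosome segregation, begin 49 bases apart, and at 24 h Mrpl57 was called higher (0.91) and Ska3 lower (-2.70) in the authors' deposited table. Mrpl51 and Ncapd2, the gene of a condensin subunit, begin 100 bases apart and were at 0.39 and -3.78 at 24 h (-0.03 and not called with edgeR for Mrpl51). Mrpl49 shares its start region with Fau, which encodes a cytosolic ribosomal protein, and the pair was at -0.85 and 0.04 at 4 h and at 0.34 and -0.65 at 24 h. Mrpl41 and Pnpla7 were both lower at 4 h, at -1.93 and -1.91, while at 24 h Pnpla7 stayed at -1.86 and Mrpl41 was at 0.51.

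A RefSeq promoter window of 250 bases before to 50 after the start was found for 64 members, and the motifs were searched on both strands. The ETS/GABPA letters CCGGAAG were in 22 of them (34.4%), against 13.3% of the windows of 14253 protein-coding genes. The NRF1 motif was in 13 (20.3%) against 7.54%, the YY1 letters AANATGGCG in 7 (10.9%) against 3.8%, and the E-box CACGTG, the site of MYC and MAX, in 4 (6.25%) against 8.62%. N stands for any base, a window with several motifs counts under each, and a match describes the sequence only.

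Both motifs were found in members of every response, and no test was made of the shares. The ETS/GABPA letters were in 13 of 42 windows of members called higher at 24 h, in 2 of 5 of those called lower and in 7 of 17 of those not called. The NRF1 motif was in 9 of 42, 1 of 5 and 3 of 17. At 3 d the ETS/GABPA letters were in 5 of 21 windows of members called higher, 3 of 11 called lower and 14 of 32 not called, and the NRF1 motif in 4 of 21, 4 of 11 and 5 of 32. The YY1 letters were in 3 of 21, 0 of 11 and 4 of 32 at 3 d, and at 24 h in 6 of 42 called higher, 0 of 5 called lower and 1 of 17 not called. Among the stretches shown above, Mrpl52 and Mrps22 were higher at 24 h and Mrpl34 lower, at 2.06, 1.22 and -0.41 in the authors' deposited table, and all hold an ETS/GABPA match, the first base of which lies 47, 11 and 37 bases before the start. Mrpl43, with a pair of matches, was not called at 24 h (-0.05) and was lower at 4 h (-0.57). Mrpl45 holds a pair of NRF1 matches and was higher at 3 d (0.78), whereas Mrpl9 holds 1 and was lower at 3 d (-0.38).

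Several genes of regulators of mitochondrial genes were higher at 4 h. Of 14 listed, 13 were tested at 4 h, with 9 called higher and 2 lower (4 and 8 with edgeR). Ppargc1b, a coactivator of NRF1 and of nuclear receptors, was at 3.66, 1.27 and 1.06 in the authors' deposited tables at the 3 times, and Pprc1, a related coactivator, at 0.96, 1.44 and 1.04. Max, the partner of MYC, was at 2.69 at 4 h, 0.86 at 24 h and 0.10 at 3 d, and Myc at 1.47, -0.22 and 0.26, not called at 24 h. Tfb2m and Polrmt, which transcribe mitochondrial DNA, were at -0.47 and -0.79 at 4 h. Tfb2m stayed lower at 24 h (-0.93) and 3 d (-0.34), and Gabpa, the DNA-binding part of GABP, was at 0.71 (-0.22 and called lower with edgeR), -0.37 and -0.30. The list had 6 called higher and 2 lower at 24 h (5 and 7 with edgeR) and 5 and 2 at 3 d (3 and 5 with edgeR), of 12 tested each.

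Ribosomal proteins with other names and the translation factors were called in both directions. Of 6 subunits named otherwise, 2 were called higher and 2 lower at 4 h (0 and 6 with edgeR), 3 and 0 at 24 h (1 and 3) and 2 and 0 at 3 d (1 and 1). Chchd1, a small-subunit protein, was at 0.33, 0.84 and 0.29 in the authors' deposited tables (-0.60 and called lower with edgeR at 4 h), and Dap3, a small-subunit GTP-binding protein, at -0.28, 0.36 and 0.09. Of 15 translation factors and related genes 3 were called higher and 6 lower at 4 h (1 and 13 with edgeR), 5 and 2 at 24 h (2 and 9) and 5 and 3 at 3 d (5 and 6). Slirp, which stabilises mitochondrial messenger RNAs, was at 1.10, 1.51 and 0.43 and was higher with both tools each time. Gfm1, the elongation factor, was at 0.92, 0.66 and 0.30 (-0.02 and not called with edgeR at 4 h), whereas Guf1 was at -0.64, -0.90 and -0.55, and Oxa1l, which inserts new proteins into the inner membrane, at -1.28, -0.51 and -0.10, not called at 3 d.

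The genes that assemble the ribosome or modify its RNA were more often lower than higher at 4 h. Of 26 listed, 5 were called higher and 12 lower (0 and 25 with edgeR), with 9 and 6 at 24 h (3 and 15) and 8 and 6 at 3 d (5 and 11). Rbfa, a maturation factor of the small subunit, was at -2.66, -1.12 and -0.78 in the authors' deposited tables, below every member at each of these times. Mrm1, which methylates the large ribosomal RNA, was at -2.00 at 4 h and not called later, at 0.20 and -0.12. Nsun4, which acts in assembly of the subunits, was at 1.22 at 24 h, and Rnmtl1, another methyltransferase, at 1.19 at 24 h and 1.11 at 3 d. The mitochondrial ribosomal RNAs were at 0.49 for mt-Rnr1 and 0.82 for mt-Rnr2 at 4 h (-0.44 and -0.12 with edgeR), at -0.52 and -0.57 at 24 h, and at -0.01, not called, and -1.23 at 3 d. Libraries of polyadenylated RNA catch these RNAs only in part.

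Counts were also taken without the 25 members of which over 10% of exonic bases or 50-base stretches are shared with another annotated gene. Of the 52 that remain, 22 were called higher and 10 lower at 4 h (3 and 45 with edgeR), 36 and 6 at 24 h (19 and 21), and 19 and 7 at 3 d (14 and 19). The sources used here do not say whether strand was used in counting, so reads of genes that overlap on opposite strands may not have been told apart.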

How the data were processed

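The samples were 12 polyadenylated-RNA libraries in 4 groups of 3, grouped by the labels. TopHat2, HTSeq, DESeq2 and edgeR are listed with build mm10 in the submitters' processing notes. Their versions, the annotation and the strand setting are not given in the sources used here. Per the file headers, the authors deposited per gene the log2 fold change and p-value, raw and adjusted, of DESeq2 and of edgeR, with an unscaled log2 ratio and a baySeq error rate, for every MPLA group against the shared controls. The tables hold no counts and no values per library, so depth is unknown. The deposited log2 values are control over MPLA and the sign was turned; Il6, Nos2 and Cxcl10, induced by lipid A, are then higher at each time.

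A gene was called where the adjusted p-value that the authors obtained with DESeq2 was under 0.05, over 17523, 16442 and 15111 genes tested at 4 h, 24 h and 3 d. Benjamini-Hochberg adjustment of the deposited p-values returned the deposited adjusted ones. The SE is the log2 fold change divided by the normal quantile of its p-value, which assumes a Wald test. Named members are the 6 highest and 6 lowest called at each time, those called in 1 direction at all times or in opposite directions, and those called alike by both tools at 4 h; of the other lists, the 2 highest and 2 lowest. The stalk proteins, the members called at no time, and the pairs and promoters shown were chosen after their values were seen, as were the values of some listed genes given at further times. Members and lists were chosen with earlier results of these data known. Coordinates and overlaps come from GENCODE M21 (GRCm38), promoters from RefSeq (GRCm38.p6). Scripts ran in python 3.11.15 with pandas 2.3.3, numpy 2.4.6 and scipy 1.17.1, and were tested on simulated data.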

Additional observations from a re-analysis of the deposited data

How the results depend on the processing

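The counts of called members depend on the scaling. With the edgeR columns 3 members were higher and 65 lower at 4 h (31 and 18 with DESeq2), 25 and 34 at 24 h (50 and 8), and 28 lower at 3 d (12). The median log2 fold change went to -0.91, -0.071 and -0.085 with edgeR and to -1.12, -0.17 and 1.13 with the unscaled ratio at 4 h, 24 h and 3 d. By the baySeq error rate 28 members were lower at 4 h, 15 at 24 h and 0 at 3 d, and 14 were higher at 3 d. For these counts baySeq gave only the call, and the direction was that of the DESeq2 log2 fold change. Called by all 3 tools, 3, 25 and 14 were higher, and 0 lower at 3 d, where DESeq2 alone called 12 and edgeR 28. Asking in addition for 1.5-fold left 16 higher and 7 lower at 4 h, 25 and 2 at 24 h, and 6 and 0 at 3 d. Without the members that overlap or share sequence, an alternative chosen after seeing the data, 10 were lower at 4 h and 7 at 3 d. Among the members named as highest or lowest at a time, Mrpl32, Mrps18c and Mrps6 at 4 h were no longer called with edgeR. Among those named for their calls over the 3 times, edgeR turned the direction at 4 h of Mrpl19 (-0.40), Mrpl21 (-0.39), Mrpl35 (-0.46), Mrpl39 (-0.049), Mrpl45 (-0.58), Mrpl47 (-0.32), Mrpl55 (-0.39), Mrps2 (-0.23), Mrps7 (-0.61), Mrps10 (-0.49), Mrps18a (-0.53), Mrps18b (-0.47), Mrps28 (-0.10) and Mrps30 (-0.54), and at 24 h of Mrpl14 (-0.10), Mrpl18 (-0.21), Mrpl19 (-0.024), Mrpl42 (-0.25), Mrpl49 (-0.075) and Mrpl50 (-0.20). Leaving out members by itself lowers a count; the cause of the other changes was not tested. No paired analysis was possible because the tables hold no values per library, and for the same reason leaving out each replicate was not run.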
